A study of Mus musculus with 16 samples.

Results

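The fibroblast growth factor (Fgf) genes described here are 4 genes named Fgf (Fgf1, Fgf2, Fgf9 and Fgf14) and 4 receptor genes (Fgfr1, Fgfr2, Fgfr3 and Fgfrl1). They were chosen with earlier results of these data known, and 23 further family genes are described near the end. The 8 are among 55487 genes listed in a single-cell RNA sequencing data set of mouse spinal cord, in which 41193 genes had at least 1 count. All 8 had counts, from 360 for Fgf9 to 19591 for Fgf14, where a count is a UMI, a single tagged RNA molecule.

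Spinal cord cells around a cervical dorsal column lesion were captured in droplets and tagged near the 3′ end of each RNA, with 1 library per mouse. WT mice (Ryk+/+,GFAPcreERT2) and Ryk cKO mice (Rykfl/fl,GFAPcreERT2), aged 8 to 10 weeks, were uninjured or were studied at 1 d, 7 d or 14 d after injury. Each of these 8 conditions held 2 mice, 16 in all. The question was how loss of Ryk, a Wnt receptor, from astrocytes changes signals between cells after injury. Both genotypes carried Cre recombinase driven by the GFAP promoter and were given tamoxifen from some days before the operation onward, so WT mice share the transgene and the drug. Deletion can be expected in cells in which that promoter was active and in no others, and uninjured mice are called sham in the labels.

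The deposited data hold 18203 cells in 17 numbered clusters. The second WT mouse at 1 d kept 1 cell with 266 UMIs, with 0 UMIs of every gene described here, and was left out. The other 15 mice had 208 to 1845 cells and 536263 to 9008729 UMIs, with a median of 3032957. WT at 1 d is therefore 1 mouse, assumed to vary like the other conditions. In 6 of the 16 mice, the one left out among them, the names of the cells give another condition than the sample title. The deposited condition column gives that of the title in these mice, and the titles were followed. Several differences between conditions are also given under the cell names and without those 6 mice, which keeps 8 injured and 2 uninjured mice. Libraries shared 166 cell barcodes, found in 432 cells. Levels by cluster were taken over all mice, whatever their condition.

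Fgf1, Fgf2 and Fgf9 encode secreted ligands that bind receptor tyrosine kinases together with heparan sulfate chains at the cell surface. The receptors pass the signal through adaptor proteins to a relay of kinases below Ras, which induces its own inhibitors. In the spinal cord, Fgf signals are known to act on neural progenitors, on the maturation of oligodendrocytes and myelin, and on astrocytes that respond to injury. Fgf14 belongs to an intracellular branch of the family that binds sodium channels, so it is not a ligand in this sense. Fgfrl1 has the extracellular part of a receptor but lacks the kinase.

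The cluster names were checked against marker genes. The 7 astrocyte markers, led by Slc1a2, summed to 15150 ± 2469 CPM (UMIs of a gene among 1000000 UMIs of the cells, mean ± SD, 14 mice) in Cluster 5, 10970 ± 1282 (15 mice) in Cluster 7 and 7655 ± 2167 (11 mice) in Cluster 2. These were the highest sums among the 17 clusters. Cluster 2 also held 17090 ± 8475 CPM of 5 oligodendrocyte markers, below the oligodendrocyte Clusters 8 and 4 alone. Its 5 neuron markers summed to 1630 ± 698 CPM, behind the neuronal cluster alone. Its median share of mitochondrial UMIs was 11.3%, compared with 10.7% in Cluster 5 and 3.42% in Cluster 7. The genes that led it were Gng13, Nefh, Kif5a and Pvalb, which are known from neurons, and mitochondrial tRNAs, with 0 of the markers listed for any cell type. Cluster 13, deposited without a cell type, was highest for 4 ependymal markers.

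Fgf1, the broad-acting ligand that binds all the kinase receptors, lies on chromosome 18 at 38838673 to 38929472 (mm10). Its level was 260 ± 69.4 CPM in Schwann cells (5 mice), 236 ± 57.1 in Cluster 7 (15 mice), 227 ± 93.5 in Cluster 2 (11 mice) and 205 ± 40.4 in Cluster 5 (14 mice). It was 193 ± 72.0 in Oligodendrocyte Cluster 8 and 153 ± 58.1 in Cluster 4. Each of these levels lay within the spread of the next. Schwann cells were above Oligodendrocyte Cluster 4 in 4 of 5 mice, by 119 ± 91.0 CPM. Neurons followed with 92.9 ± 29.0 CPM, and the level ranged from 81.3 in pericytes down to 17.5 in endothelial cells. At the low end were red blood cells, immune cells, myeloid cells and microglial Cluster 6, with 7.71 ± 6.82 in the last. Fgf1 UMIs were found in 44.5% of Cluster 7 cells at a median of 2882 UMIs per cell and in 3.499% of endothelial cells at a median of 890. Among cells thinned to 1000 UMIs, the shares were 20.5% and 1.62%.

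Fgf2, a ligand that astrocytes and vascular cells are known to make, lies on chromosome 3 at 37348346 to 37410108. It was sparse, with 444 UMIs in all cells. Its highest levels were 22.8 ± 18.7 CPM in Cluster 5, 19.4 ± 13.1 in pericytes, 16.9 ± 12.3 in microglial Cluster 10, 16.55 ± 16.57 in Schwann cells and 13.2 ± 14.6 in Cluster 7, which do not differ beyond their spread. The level was 1.30 ± 1.56 CPM in endothelial cells and 3.01 ± 3.59 in neurons. In myeloid cells 0 of 443552 UMIs were Fgf2. The annotation places Gm43439 in the same span and strand (273 UMIs in all cells), and Nudt6 opposite (402 UMIs), so reads there may be split between genes.

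Fgf9, a ligand known from neurons, lies on chromosome 14 at 58070547 to 58112720. Neurons held 173 of its 360 UMIs, at 27.9 ± 30.5 CPM (15 mice). Cluster 2 held 23.3 ± 21.7 (11 mice) and Cluster 5 held 12.3 ± 14.3 (14 mice), and these 3 levels overlapped. All other clusters had means of 7.18 CPM or less, with 3.59 ± 7.09 in Cluster 7 and 0.506 ± 1.08 in microglial Cluster 6. Fgf9 UMIs were found in 5.99% of neurons (median 1848 UMIs per cell) and in 0.228% of microglial Cluster 6 (median 780.5). After thinning the shares were 2.40% and 0.173%.

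Fgf14, which shapes the firing of neurons through sodium channels, spans 123977907 to 124677127 on chromosome 14. Its level was 1615 ± 946 CPM in neurons (15 mice), 1208 ± 467 in OPC (oligodendrocyte precursor cells, 14 mice) and 1151 ± 228 in Cluster 7 (15 mice). These levels were not ordered within mice, since neurons were above OPC in 7 of 14 mice and above Cluster 7 in 7 of 15. Neurons of the 9 animals numbered 10000 and above had 989.8 ± 303.5 CPM. Cluster 5, also named astrocytes, held 388 ± 375 CPM and was below Cluster 7 in all 14 mice that had both. Cluster 13 held 260 ± 140, Cluster 2 held 109 ± 92.9 and Oligodendrocyte Cluster 4 held 101 ± 74.5, while microglia and myeloid cells had 19.2 CPM or less. UMIs of Fgf14 were found in 71.3% of Cluster 7 cells, 68.7% of neurons and 56.2% of OPC, beside 4.79% of microglial Cluster 6 (median 780.5 UMIs per cell). After thinning these were 59.5%, 56.8%, 49.2% and 2.25%.

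Among the receptors, Fgfr1, a kinase receptor known from mesenchymal and neural cells, lies on chromosome 8 at 25513654 to 25575718. Fibroblasts had the highest level, 386 ± 149 CPM (9 mice). They were above Schwann cells in all 5 mice with both types, above Cluster 13 in 7 of 7 and above Cluster 7 in 8 of 9. Schwann cells had 117.5 ± 78.1, Cluster 7 had 112.5 ± 34.5, Cluster 13 had 107 ± 51.8 and Cluster 5 had 93.4 ± 83.0, which overlapped. Neurons held 61.9 ± 31.5 and pericytes 54.2 ± 31.7. The level was 12.98 ± 4.93 CPM in endothelial cells and 1.99 and 2.30 in the microglial clusters. Fgfr1 UMIs were found in 54.3% of fibroblasts (median 2498 UMIs per cell) and 0.684% of microglial Cluster 6 (median 780.5), or 31.5% and 0.173% after thinning.

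Fgfr2, known in this tissue from oligodendrocytes and myelin, lies on chromosome 7 at 130162451 to 133123350 in the annotation used. That span overlaps many other genes, and the span on which the deposited counts were made is not known. Oligodendrocyte Cluster 4 had the highest level, 698 ± 234 CPM (15 mice), above Oligodendrocyte Cluster 8 (472 ± 187) in 12 of 14 mice and above neurons and Cluster 7 in all 15. Neurons had 285 ± 123 and Cluster 7 had 254 ± 64.5, and the means of most other clusters ranged from 197 ± 158 in Cluster 13 to 69.9 ± 45.7 in microglial Cluster 10, each within the spread of its neighbours in this order. Every cluster had Fgfr2 UMIs, down to 25.6 ± 22.2 CPM in red blood cells. They were found in 54.9% of Oligodendrocyte Cluster 4 (median 1115 UMIs per cell) and 19.1% of microglial Cluster 6 (median 780.5), or 49.0% and 9.17% after thinning.

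Fgfr3, in this tissue a receptor of astrocytes and their precursors, lies on chromosome 5 at 33721674 to 33737068. Its highest levels were in the 3 clusters deposited as astrocytes, with 638 ± 103 CPM in Cluster 7 (15 mice), 408 ± 218 in Cluster 5 (14 mice) and 141 ± 102 in Cluster 2 (11 mice). Cluster 7 was above Cluster 5 in 12 of 14 mice, and Cluster 5 above Cluster 2 in 11 of 11. OPC followed with 47.3 ± 28.1 and neurons with 41.1 ± 26.3, and microglial Cluster 6 had 1.43 ± 1.82. Fgfr3 UMIs were found in 66.3% of Cluster 7, 33.7% of Cluster 5 and 0.608% of microglial Cluster 6, with median depths of 2882, 1377 and 780.5 UMIs per cell. After thinning the shares were 44.2%, 25% and 0.173%.

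Fgfrl1, the receptor without a kinase, lies on chromosome 5 at 108692382 to 108706924. Its highest levels were 97.0 ± 54.4 CPM in Oligodendrocyte Cluster 8, 76.8 ± 40.0 in Cluster 5, 74.8 ± 67.6 in Cluster 7 and 61.6 ± 54.9 in OPC, none apart from the next beyond its spread. Oligodendrocyte Cluster 4 had 23.5 ± 24.96, endothelial cells 2.55 ± 3.43, and myeloid cells 0 of 443552 UMIs. Shares with a UMI were 13.3% in Oligodendrocyte Cluster 8 (median 1004 UMIs per cell) and 0.809% in endothelial cells (median 890), or 7.59% and 0.354% after thinning.

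**Figure D1:**
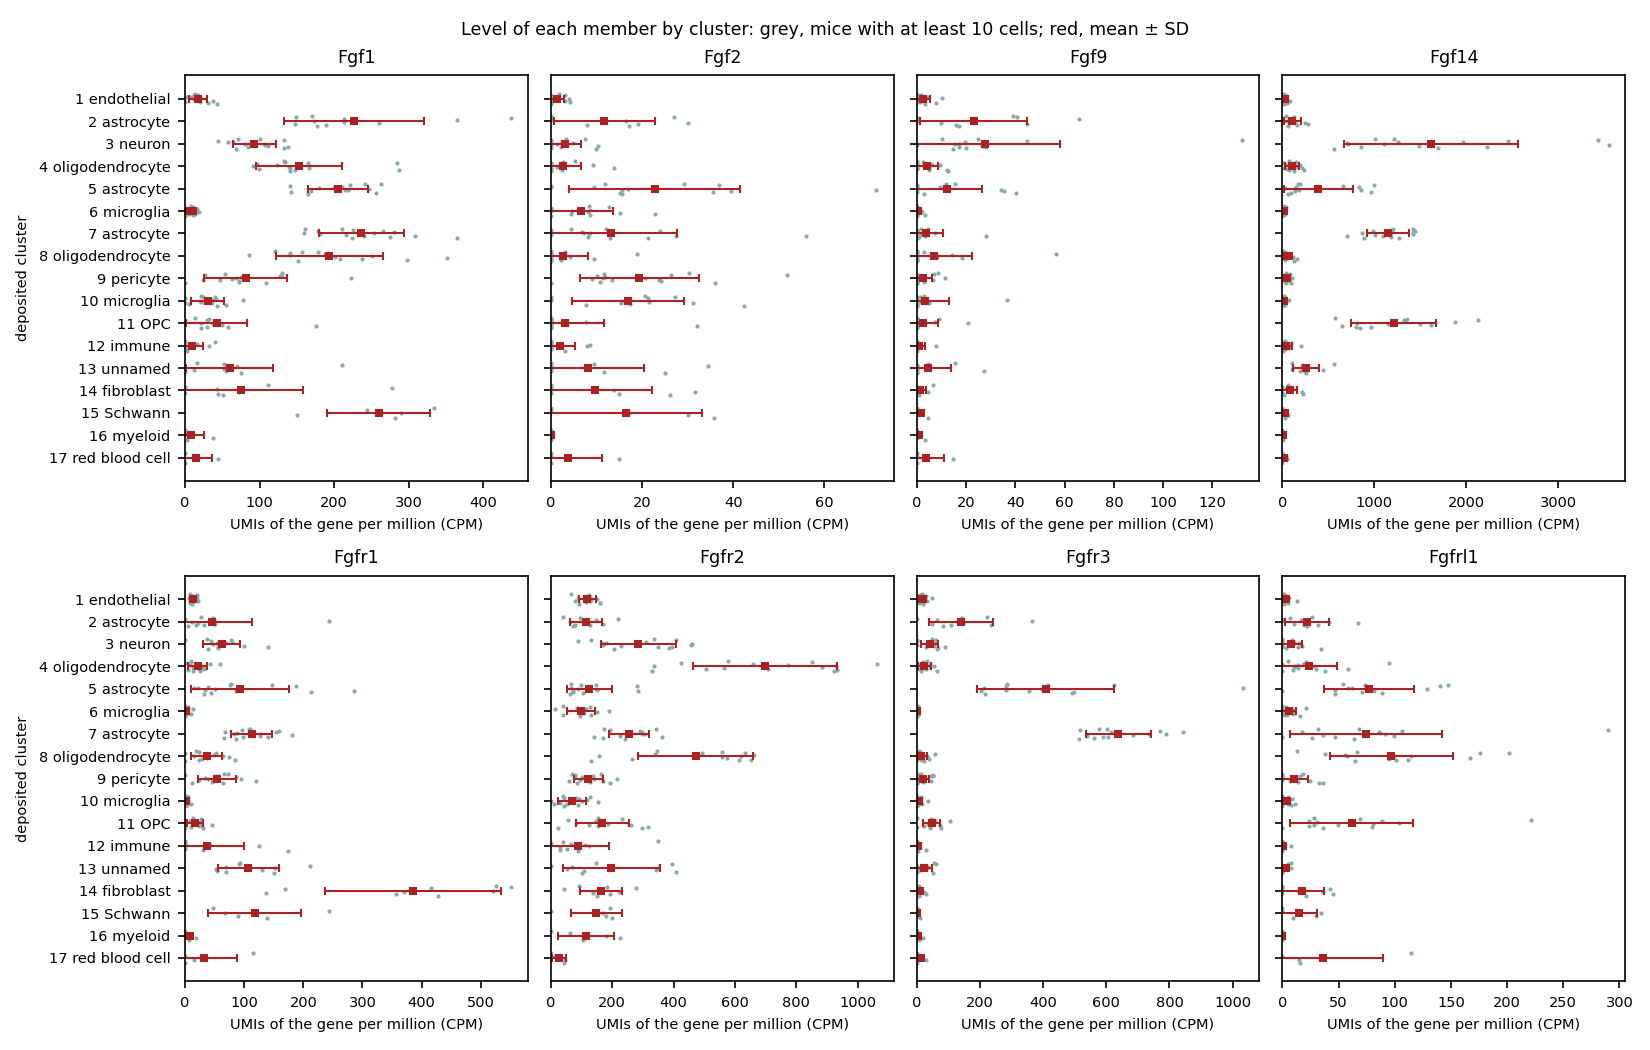
Level of each gene (horizontal axes, CPM, a separate scale per gene) in the 17 deposited clusters (vertical axis); grey points are mice with at least 10 cells of the cluster and red squares with bars are mean ± SD. Fgfr3 is highest in Cluster 7 (638 CPM) and Cluster 5 (408), Fgfr2 in Oligodendrocyte Cluster 4 (698), and Fgfr1 in fibroblasts (386), while Fgf14 in neurons (1615), OPC (1208) and Cluster 7 (1151) had no fixed order within mice.

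The patterns over clusters were compared with those of 10194 other genes by Pearson's r of log2 mean levels over the 17 clusters, which share libraries and differ in depth. Fgfr3 was most like Acvr1c (r 0.980), Itih3 (0.974) and Agt (0.971). Fgf14 was most like Nrxn3 (0.974), Grip1 (0.974) and Lrrn2 (0.963), and Fgf9 like Tmem130 (0.960), Phf24 (0.957) and Kcnk9 (0.956). The fibroblast-led Fgfr1 was most like Col1a2 (0.908), Ltbp3 (0.879) and Eda (0.859), where Col1a2 encodes a chain of type I collagen. For Fgfr2 the nearest were Dip2a (0.925), Fam102a (0.895) and Lrrc28 (0.883), and for Fgf1 they were Gprc5b (0.919), Tmod2 (0.916) and Scd2 (0.907). Fgfrl1 was nearest to Tubb2b (0.938), Zcchc24 (0.862) and Omg (0.861). The sparse Fgf2 had its highest values with Fuom (0.754), Oaf (0.739) and Fxyd1 (0.710). Among the members the highest r were 0.718 for Fgfr3 with Fgf14 and 0.617 for Fgfrl1 with Fgf1, and the lowest was −0.164 for Fgfr2 with Fgf2.

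Conditions were compared over mice in 5 classes of cells, namely Clusters 2, 5 and 7 together, which were deposited as astrocytes and are called so here although Cluster 2 had the mixed markers given above, Cluster 7 alone, oligodendrocytes (Clusters 4 and 8), endothelial cells and neurons. Levels per mouse here are CPM normalized between mice. The deleted gene was read first. In the astrocyte clusters, Ryk had 123 and 87.6 normalized CPM in WT and 57.8 and 135 in cKO uninjured mice. At 1 d it had 81.6 in WT and 16.6 and 74.0 in cKO, at 7 d 132 and 123 in WT and 74.7 and 120 in cKO, and at 14 d 115 and 111 in WT and 129 and 128 in cKO. The cKO mice were below WT at 1 d and at 7 d and above at 14 d, with overlap in uninjured mice. Of all 11769 genes, 6869 (58.4%), 2938 (25%) and 4383 (37.2%) separated the genotypes in either direction at 1 d, 7 d and 14 d. Counts were low, with 1 UMI behind the value of 16.6. The difference between cKO and WT over injury was −0.20 on the log2 scale (SE 0.37, adjusted p = 1.0). Tags from the 3′ end may lie outside the deleted part of Ryk, so this does not check the genotype labels.

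The first comparison asked whether astrocytes of injured mice differ from those of uninjured mice, over both genotypes. Fgfr1 was higher and Fgf1 lower in every injured mouse than in every uninjured mouse, but neither passed the test across all genes. Fgfr1 had 62.7 and 50.4 normalized CPM in WT and 48.1 and 58.0 in cKO uninjured mice. In the 11 injured mice it ranged from 68.7 to 149, with a median of 93.7. It had 95.2 in WT and 149 and 93.7 in cKO at 1 d, 132 and 121 in WT and 137 and 79.6 in cKO at 7 d, and 91.4 and 91.5 in WT and 68.7 and 93.2 in cKO at 14 d. The difference was 0.85 on the log2 scale (SE 0.30, 95% interval 0.21 to 1.49, adjusted p = 0.834).

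Fgf1 had 267 and 282.5 normalized CPM in WT and 289 and 292 in cKO uninjured astrocytes. In injured mice it ranged from 149 to 267, with a median of 202. The groups touched without overlapping, with the highest injured mouse (cKO at 7 d) just under the lowest uninjured one. The difference was −0.46 on the log2 scale (SE 0.27, adjusted p = 0.844). Of all 11769 genes tested, 25 or 0.212% separated injured from uninjured mice in this way, 11 of them higher with injury and 14 lower. The median of all genes was −0.18, so that the difference was 1.03 for Fgfr1 and −0.28 for Fgf1 relative to it.

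Other measures of these cells overlapped between injured and uninjured mice and were not tested. The summed astrocyte markers were 10290 ± 948 CPM in uninjured and 12400 ± 1135 in injured mice, and the oligodendrocyte markers 9925 ± 9152 and 5618 ± 2484. The median UMIs per cell, averaged over mice, were 1825 ± 990 in uninjured and 1269 ± 796 in injured mice, and the uninjured replicate 2 mice drew 46.3% and 45.9% of their astrocytes from Cluster 2. Their part in the result was not tested. Without Cluster 2, Fgfr1 ranged from 53.3 to 71.7 normalized CPM in uninjured and from 76.0 to 173 in injured mice, still without overlap, as for 21 of 10400 genes (0.202%) in either direction, while Fgf1 overlapped. With the conditions of the cell names both genes overlapped between injured and uninjured mice, with a log2 difference of 0.76 for Fgfr1 (adjusted p = 0.942) and −0.35 for Fgf1. Without the 6 mice neither overlapped, and Fgf14 was lower in all 8 injured mice (360 to 870.5) than in both uninjured ones (943 and 1281). With so few mice, 617 of 11769 genes (5.24%) separated in either direction. These uninjured mice drew 66.2% and 62.5% of their astrocytes from Cluster 7, and the injured ones 15.5% to 61.8%. The Fgf14 level of Cluster 7 was above those of Clusters 5 and 2, and the part of this in the result was not tested. The log2 difference was then 0.86 for Fgfr1 (adjusted p = 0.943) and −0.38 for Fgf1.

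Fgf14 took the other direction among animals numbered 10000 and above alone, where it was higher with injury (log2 difference 1.01, adjusted p = 0.00313) and was called by edgeR with 1673 of 10850 genes. Fgfr1 was called there too, in the direction it had over all mice (0.77, adjusted p = 0.0433). The uninjured mice there, replicate 2 of WT and of cKO, had 302 and 426 normalized CPM. Both are among the 6 mice whose cell names give another condition, which is cKO uninjured for the first and WT at 7 d for the second. Their oligodendrocyte markers summed to 15780 and 19670 CPM, compared with 6101 to 7878 in the injured mice of this fit. Malat1 was at 6662 and 10900 CPM, compared with 13290 to 22760. The median share of mitochondrial UMIs was 12.4% and 12.8%, compared with 6.37% to 11.8%. The injured mice left out of this fit, replicate 1 at 1 d and at 7 d, had medians of 414 to 548 UMIs per cell over all cells. Those kept had 1514 to 3637, so depth went with animal number among injured mice. The uninjured mice of this fit drew 8.95% and 12.04% of their astrocytes from Cluster 7, compared with 66.2% and 62.5% in the other uninjured mice. Fgf14 was at 1151 CPM in Cluster 7, 388 in Cluster 5 and 109 in Cluster 2. The part of this mixture and of the measures above in the result was not tested.

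The other 6 members overlapped between injured and uninjured astrocytes. Fgfr3 had 864 and 429 normalized CPM in WT and 395.5 to 414 in cKO uninjured mice, beside 314.5 to 621 (median 469) in injured mice. Fgf14 had 302 to 1281 in the 4 uninjured mice and 360 to 1030 (median 815) in injured mice, and Fgfr2 had 125 to 262 and 112 to 275. The sparse Fgf2 and Fgf9 lay at 5.45 to 28.5 and 0 to 10.95 normalized CPM in uninjured mice, and at 0 to 37.4 and 0 to 28.9 in injured mice. By edgeR, 0 of the 8 members and 0 of 11769 genes (0%) passed an adjusted p of 0.05. Before adjustment 1 member and 698 genes had p under 0.05 by edgeR, and DESeq2 called 0 genes with 1 member and 339 genes at that unadjusted level.

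**Figure D2:**
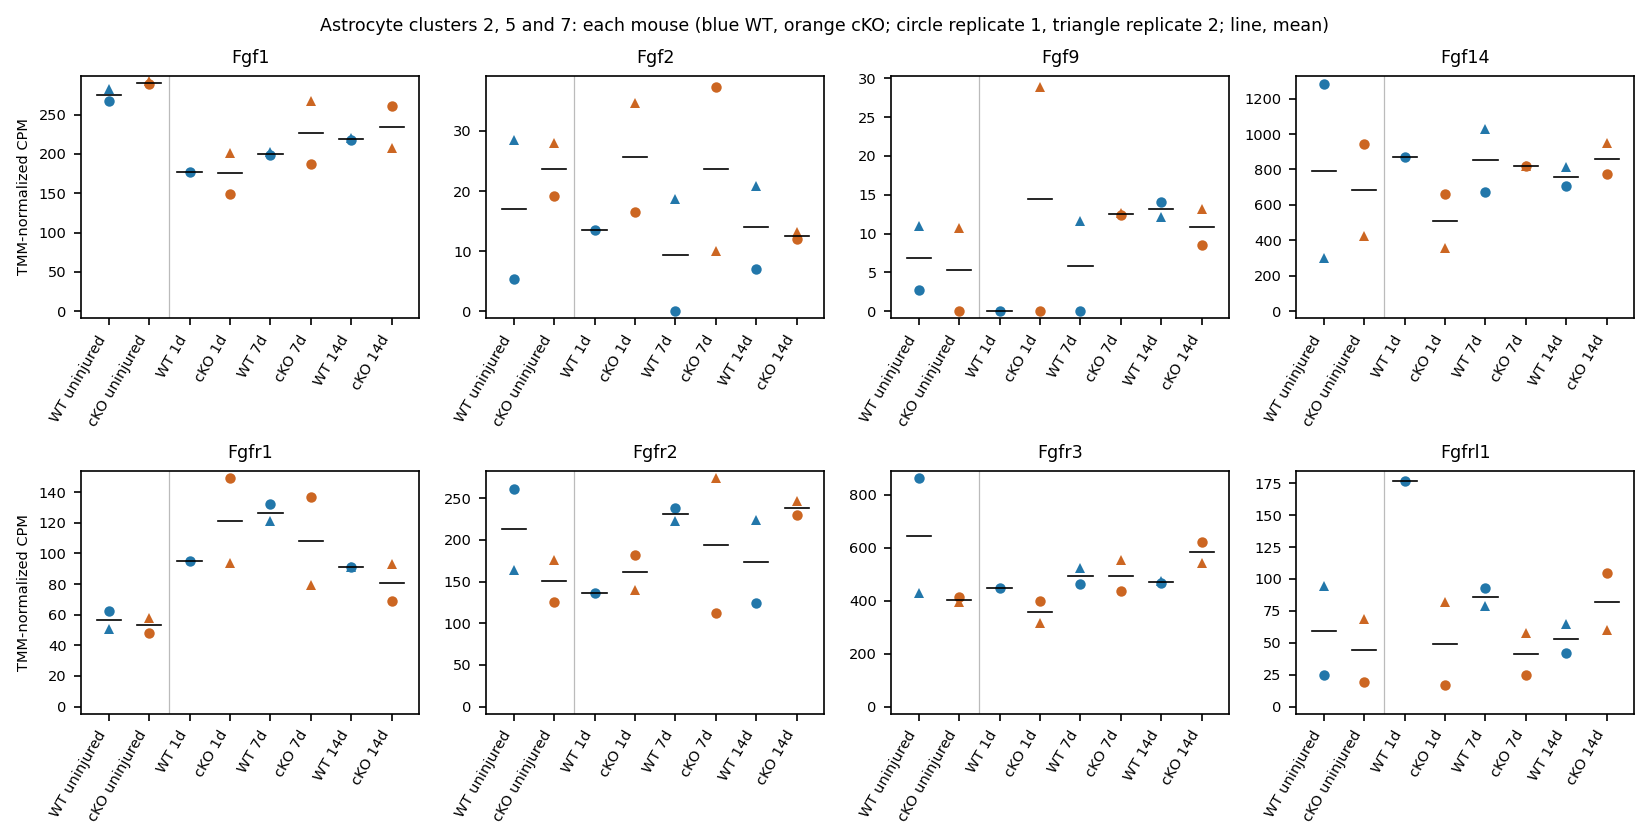
Normalized CPM of each gene (vertical axes) in the astrocyte Clusters 2, 5 and 7 of each mouse by condition (horizontal axes), with WT in blue, cKO in orange, replicate 1 as circles, replicate 2 as triangles and lines at the mean. Fgfr1 is at 48.1 to 62.7 in uninjured and at 68.7 to 149 in injured mice, and Fgf1 at 267 to 292 and 149 to 267.

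The second comparison asked whether Ryk cKO changed these genes in astrocytes after injury. The genotypes overlapped for all 8 members. Fgfr3 had 449 to 525.7 normalized CPM in the 5 injured WT mice (median 469) and 314.5 to 621 in the 6 injured cKO mice (median 490). Fgf1 had 177 to 220.5 (median 202) in WT and 149 to 267 (median 204) in cKO, and Fgfr1 had 91.4 to 132 (median 95.2) and 68.7 to 149 (median 93.4). Fgf14 had 675 to 1030 in WT and 360 to 949 in cKO, and Fgfr2 had 124 to 238 and 112 to 275. The medians of Fgfr3, Fgf1 and Fgfr1 lay close together. For Fgfr3, however, 3 of the 6 cKO mice were above all 5 WT mice and 3 were below all of them. Its cKO median therefore lies in a gap between mice, and no cKO mouse was within the WT range.

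The log2 differences of cKO from WT over injury were −0.01 for Fgfr3 (SE 0.33, 95% interval −0.70 to 0.68), 0.11 for Fgf1 (SE 0.30), −0.08 for Fgfr1 (SE 0.32) and 0.16 for Fgfr2 (SE 0.35), beside a median of 0.15 over all genes. Fgf2 had 0.27 (SE 0.71), Fgf14 −0.22 (SE 0.41) and Fgfrl1 −0.55 (SE 0.43). Fgf9 had 0 of 59501 UMIs in the WT mouse at 1 d, which allows up to 50.4 CPM before normalization. Its fitted value is therefore no bound, and no fold is given. Here edgeR called 0 of 8 members and 0 of 11769 genes (0%), with 0 members and 265 genes at an unadjusted p under 0.05. DESeq2 called 0 members and 1 gene.

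Among members with UMIs in every condition, Fgfrl1 had the largest contrast of genotypes over time. At 1 d it had 177 normalized CPM in the WT mouse and 16.6 and 82.1 in cKO. At 7 d it had 92.6 and 79.1 in WT and 24.9 and 57.5 in cKO, and at 14 d 42.2 and 64.5 in WT and 104.7 and 59.8 in cKO. The cKO mice were below WT at 1 d and at 7 d, and the groups overlapped at 14 d. The values of 16.6 and 24.9 rest on 1 and 2 UMIs, and 868 of 11769 genes (7.38%) had cKO on the same side of WT at 1 d and at 7 d. The log2 differences were −1.46 at 1 d (SE 0.87), −0.78 at 7 d (SE 0.71) and 0.58 at 14 d (SE 0.62). The difference at 14 d less the mean of 1 d and 7 d was 1.70 (SE 0.83, adjusted p = 1.0), beside medians over all genes of 0.34 at 1 d and −0.30 for this contrast. It was 1.575 under the cell names and 2.45 without the 6 mice. In each of the comparisons at 1 d, 7 d and 14 d and between them, edgeR called 0 of 8 members and 0 of 11769 genes (0%). Its unadjusted p was under 0.05 for 0 members and for 402, 101, 116 and 276 genes, while DESeq2 called 0 genes.

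Cluster 7 is the astrocyte cluster with the most UMIs per cell. Its Fgfrl1 was 19.5 to 104 normalized CPM in the 4 uninjured mice and 0 to 251 in the 11 injured mice (median 81.3), which overlapped. The highest value, the WT mouse at 1 d, rested on 9 UMIs. The difference was 0.79 on the log2 scale (SE 0.37, adjusted p = 0.701), beside a median of −0.14 over all genes. It was 1.02 with the conditions of the cell names and 1.91 without the 6 mice. Fgfr1 had 65.8 to 104 in uninjured and 83.7 to 177 in injured mice, with a log2 difference of 0.49 (SE 0.31, adjusted p = 0.788), and Fgfr3 had 566 to 963 and 446 to 917. Of 7 members tested, edgeR called 0, beside 18 of 7966 genes (0.226%), with 1 member and 554 genes at an unadjusted p under 0.05. DESeq2 called 0 members and 1 gene, and the sex of the mice, which the labels do not give, was not in the model.

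Between genotypes in Cluster 7 after injury, the 7 members tested overlapped and edgeR called 0, beside 1 of 7966 genes (0.0126%). Unadjusted p values under 0.05 numbered 0 for members and 394 for genes, while DESeq2 called 0. Fgf14 had 888 to 1652 normalized CPM in WT and 782 to 1618 in cKO (log2 difference −0.17, SE 0.25). Fgfr3 had 446 to 702 and 509 to 917 (0.20, SE 0.25), beside a median of 0.18 over all genes. Fgfrl1 had 35.95 to 251 and 0 to 111 (−0.62, SE 0.35). For Fgf1 the log2 difference was 0.33 (SE 0.29, adjusted p = 0.866). Its level was above all 5 WT mice in 4 of the 6 cKO mice and below all of them in 0. The gene called was Kcnj3, a potassium channel subunit, named here after its values were seen. It had 0, 48.0, 23.5, 144 and 104 normalized CPM in the injured WT mice, and 94.3, 744, 121, 1284, 1115 and 1236 in the injured cKO mice. The lower of the cKO mice at 1 d and at 7 d lay within the WT range, and with 0 UMIs in WT at 1 d the fitted difference is no bound. Kcnj3 was also called under the cell names and without the 6 mice, and lost its call in 2 of 22 alternatives, DESeq2 and the fit without replicate 2 of cKO at 1 d.

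In oligodendrocytes Fgfr2 was the member with the most UMIs, at 381 to 815 normalized CPM in uninjured and 428 to 906 in injured mice, with overlap. Fgf14 had 32.0, 190.5, 192 and 196 normalized CPM in the 4 uninjured mice and 0 to 201.5 (median 47.45) in the 11 injured mice. All uninjured mice but replicate 1 of WT were above the injured median. The WT mouse at 1 d had 0 of 108148 UMIs, a floor of 27.7 CPM before normalization. The fitted log2 difference was −2.19 (SE 0.91, adjusted p = 0.771), which is therefore no bound. It was −0.85 without that mouse, −0.02 with the conditions of the cell names and −1.96 without the 6 mice. Neuron markers in this class summed to 738 ± 436 CPM in uninjured and 396 ± 336 in injured mice, and astrocyte markers to 1709 ± 979 and 939 ± 511, and their part in the result was not tested. With injury edgeR called 0 of 6 members and 0 of 8624 genes (0%), and 1 member and 553 genes had an unadjusted p under 0.05. DESeq2 called 0 members and 2 genes.

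Between genotypes in injured oligodendrocytes, Fgfr1 had 0, 13.4, 15.8, 41.8 and 57.5 normalized CPM in WT and 24.0 to 44.8 (median 34.2) in cKO. The cKO mice lay inside the WT range. The fitted difference of 2.59 (SE 0.82, adjusted p = 1.0) rests on the WT mouse at 1 d, which had 0 UMIs, and was 0.46 without it. It was 0.27 with the conditions of the cell names and 2.45 without the 6 mice, where the WT mouse at 1 d remains. By edgeR 0 of 6 members and 0 of 8624 genes (0%) were called, with 1 member and 189 genes at an unadjusted p under 0.05. DESeq2 called 0 genes, with 2 members and 76 genes at that unadjusted level.

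In endothelial cells 5 members were tested. Fgfr2 had 111 to 153 normalized CPM in uninjured and 69.2 to 157 in injured mice (log2 difference −0.08, SE 0.21), and between genotypes 69.2 to 120 in WT and 88.3 to 157 in cKO (0.19, SE 0.22). Fgf1 had 2.96 to 55.0 in uninjured and 0 to 41.4 in injured mice. By edgeR 0 of 5 members and 0 of 10985 genes (0%) were called in either comparison, with 0 members at an unadjusted p under 0.05 and 311 genes between genotypes and 783 with injury. DESeq2 called 0 genes.

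In neurons Fgf14 had 858 to 2162 normalized CPM in uninjured and 966 to 3333 in injured mice, with 1213 to 1758 in injured WT and 966 to 3333 in injured cKO mice. The highest value was a cKO mouse, and all groups overlapped. Fgfr2 had 58.5 to 459 in injured WT and 161 to 622 in injured cKO mice (log2 difference 0.94, SE 0.49). Fgf9 had 12.2 to 58.5 in WT and 0 to 29.2 in cKO (−0.68, SE 0.68). Both values of 58.5 rest on 1 UMI in the WT mouse at 1 d. The median of all genes was 2.01 between genotypes and −0.82 with injury, since the WT mouse at 1 d had 18 neurons with 7570 UMIs. Fgfr1, Fgfr3 and Fgfrl1 had 0 UMIs in that mouse, which allows up to 396 CPM before normalization, so no fold is given. By edgeR 0 of 7 members and 0 of 10238 genes (0%) were called between genotypes, and 0 of 7 members and 1 of 10238 genes (0.00977%) with injury. An unadjusted p under 0.05 was reached by 0 members beside 382 and 913 genes, while DESeq2 called 0. The gene called was Acta1, a skeletal muscle actin, named here after its values were seen, with 0, 91.7, 111 and 346 normalized CPM in uninjured and 0 to 19.2 in injured mice. The call was lost in 11 of 23 alternatives, among them DESeq2, the cell names, the fit without the 6 mice and 7 of 15 fits with 1 mouse left out.

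**Figure D3:**
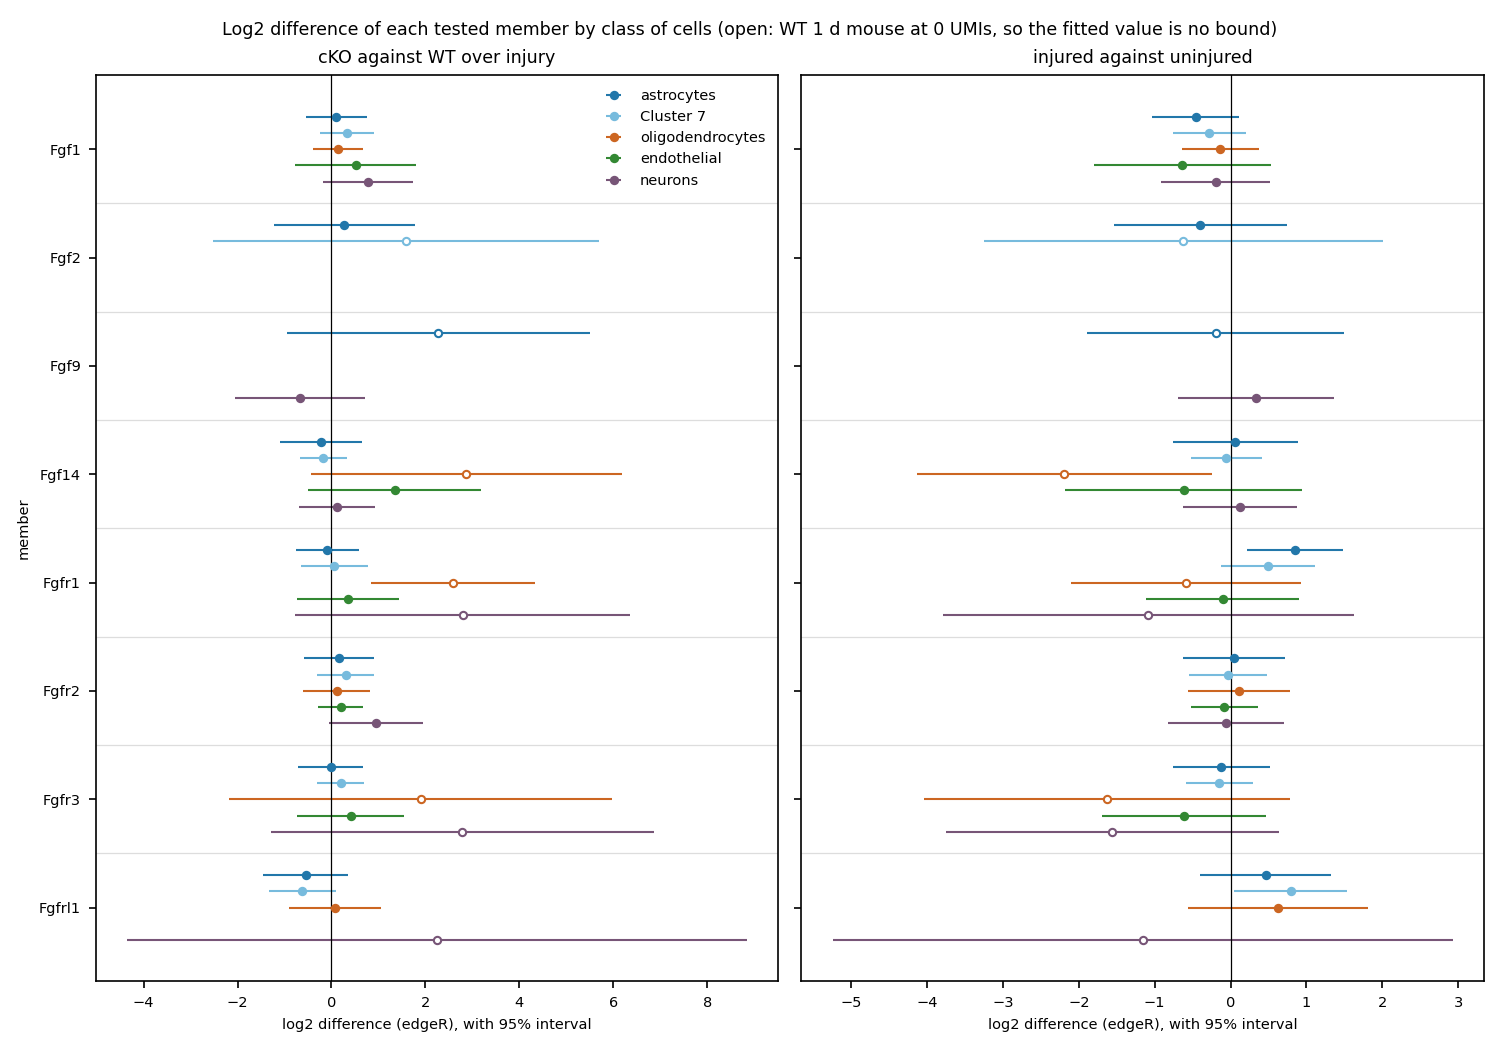
Log2 difference (edgeR, horizontal axes) of each member tested, with its 95% interval as a line, for cKO against WT over injury (left) and for injured against uninjured mice (right), by gene (vertical axis) and class of cells (colour). Open points rest on a condition with 0 UMIs and are no bound, and Fgfr1 in the astrocyte clusters with injury (0.85) and in oligodendrocytes between genotypes (2.59, open) lie to the right of 0.

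Other genes of the pathway were read from 4 lists. Of 23 further Fgf, receptor and Fgf binding protein genes, 4 could be tested in the astrocyte clusters, 2 each in Cluster 7, oligodendrocytes and endothelial cells, and 3 in neurons. The most abundant in astrocytes were the intracellular Fgf12 (71.5 ± 28.9 CPM, 15 mice), Fgf13 (23.5 ± 16.9) and Fgf11 (6.18 ± 5.44), and Fgfbp3 (7.26 ± 7.02), which carries ligands. In neurons Fgf12 had 671 ± 332 CPM, and in endothelial cells Fgf13 had 194 ± 104. By edgeR 0 of these genes passed in any of the 14 comparisons, in either direction. Of all genes tested, edgeR called 1 (0.0126%) in Cluster 7 between genotypes and 18 (0.226%) there with injury. In neurons with injury it called 1 (0.00977%), and in every other comparison 0 (0%). These shares also stand beside the counts of the lists below.

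All 14 adaptor and relay genes were tested in the astrocyte clusters and in oligodendrocytes, 12 in Cluster 7, and 13 in endothelial cells and in neurons. Of them 0 passed in either direction, beside the shares of all genes given above. Among the more abundant in astrocytes were Braf (110 ± 42.5 CPM), Frs2 (86.7 ± 35.2) and Ptpn11 (86.3 ± 54.9), of which Frs2 is the adaptor that docks on the receptors. Gab1, another docking protein, led in oligodendrocytes with 413 ± 143 CPM. In oligodendrocytes the list's median log2 difference was 0.10 between genotypes and −0.04 with injury, beside 0.06 and −0.02 over all genes.

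Of 15 feedback inhibitors and ETS targets, 11 were tested in the astrocyte clusters and in endothelial cells, 9 in Cluster 7 and in neurons, and 7 in oligodendrocytes. Among these 0 passed, beside the shares of all genes given above. In the astrocyte clusters the inhibitors Spred1 and Spred2 had 197 ± 39.05 and 142 ± 49.6 CPM, Flrt2 had 122 ± 36.8 and the transcription factor Etv5 had 109 ± 38.0. The list's median was −0.14 between genotypes and −0.08 with injury there, beside 0.15 and −0.18 over all genes. Between genotypes it was −0.38 at 1 d, 0.05 at 7 d and 0.26 at 14 d, beside 0.34, 0.01 and −0.01 over all genes. In Cluster 7 the list's median was 0.01 between genotypes and 0.13 with injury, beside 0.18 and −0.14. In oligodendrocytes another ETS factor, Etv1, led with 284 ± 76.9 CPM.

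Of 19 heparan sulfate co-receptors and enzymes, 16 were tested in the astrocyte clusters, 13 in Cluster 7, in oligodendrocytes and in endothelial cells, and 17 in neurons. Here too 0 passed in either direction, beside the shares of all genes given above. Glypican Gpc5 had 5018 ± 1923 CPM in the astrocyte clusters and 8216 ± 1315 in Cluster 7, beside 138 ± 100 in oligodendrocytes. Gpc6 had 427 ± 202 and the syndecans Sdc4 and Sdc3 had 329 ± 86.0 and 238 ± 43.9 in the astrocyte clusters. The sulfatase Sulf2 led in oligodendrocytes with 220 ± 78.2 CPM, and Hs6st3, a sulfotransferase, had 730 ± 413 in neurons. Medians are left out where a condition had 0 UMIs of some genes of a list.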

How the data were processed

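The authors aligned reads with Cell Ranger to mm10, kept cells with under 25% mitochondrial UMIs and over 200 genes, joined libraries with Seurat and Harmony in R 4.1.2, and deposited raw UMI counts per gene and cell. The other deposited columns (batch, cluster, condition and quality per cell) were used as the authors gave them. Positions were looked up by symbol in GENCODE (mm10). Members and lists were chosen with earlier results of these data known. Named were all members, list genes that passed or else some of the most abundant of each list, and the 3 genes nearest to each member.

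Levels are CPM (UMIs among 1000000) per mouse and cluster with at least 10 cells. Similarity used log2 of mean CPM plus 10, among genes reaching 50 CPM in a cluster. For tests, counts were summed per mouse and class (at least 10 cells, and 50 per mouse) and fitted with edgeR 4.0.16 (TMM, filterByExpr, quasi-likelihood on condition means, Benjamini-Hochberg at 0.05) in R 4.3.3, after a check on simulated counts. DESeq2 1.42.0 was an alternative. Astrocytes had 32 to 581 cells and 43475 to 1517489 UMIs per mouse, Cluster 7 had 20 to 111 and 27728 to 995562, oligodendrocytes 36 to 342 and 85933 to 1060647, endothelial cells 46 to 418 and 130195 to 1663827, and neurons 18 to 351 and 7570 to 2145779. Floors of 3 UMIs cover counting error only and are in CPM before normalization. Members below the filter were Fgf9 in Cluster 7, Fgf2 and Fgf9 in oligodendrocytes, Fgf2, Fgf9 and Fgfrl1 in endothelial cells, and Fgf2 in neurons. Replicate numbers and deposited batch are identical in 16 of 16 mice. Deviations of mice from their condition means correlated between conditions with a median r of 0.121 in astrocytes (12 of 21 pairs above 0.1), 0.0398 in Cluster 7 (4), 0.228 in oligodendrocytes (15), 0.0835 in endothelial cells (10) and 0.0464 in neurons (9). A replicate block in the fit called 0 members. Free RNA and doublets were not removed. Python 3.11.15, numpy 2.4.6, pandas 2.3.3, scipy 1.17.1 and matplotlib 3.10.9 were used.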

Additional observations from a re-analysis of the deposited data

Results flagged for a closer look

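Among 101 groups of 4 to 10 mice, 7 held a value far from the others, where chance gives about 1 in 20 groups. Values are normalized CPM. Fgfr3 in uninjured astrocytes was 864.1 in replicate 1 of WT, beside 395.5 to 429.2 in the other 3 mice. In Cluster 7 of injured WT mice, Fgfr3 was 446.4 in the 1 d mouse, beside 663 to 702.4. In the same mouse and cluster, Fgfrl1 was 251.1, beside 35.95 to 98.1. Fgf14 in uninjured oligodendrocytes was 31.97 in replicate 1 of WT, beside 190.5 to 195.6. Fgf14 in endothelial cells of injured cKO mice was 97.27 in replicate 2 at 1 d, beside 0 to 35.58. In endothelial cells of injured WT mice, Fgfr1 was 19.37 in replicate 2 at 14 d, beside 8.354 to 11.29. There, Fgfr2 was 69.22 in replicate 1 at 14 d, beside 112.6 to 120.1. None of these differences between mice was tested for a cause.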

How the results depend on the processing

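Alternatives were counted per comparison, so a fit with several comparisons counts once for each. A limit of 30 cells left out no mouse in astrocytes, oligodendrocytes and endothelial cells, so there it repeats the reported fit. The count of members called stayed at 0 in 315 of 316 alternatives. In the other, with animals numbered 10000 and above only, 2 members were called in astrocytes with injury: Fgf14 (log2 difference 1.01, adjusted p = 0.00313, over alternatives 0.00313 to 1.0) and Fgfr1 (0.77, adjusted p = 0.0433, over alternatives 0.0433 to 1.0). There 1673 of 10850 genes were called, and both uninjured mice drew about 46% of astrocytes from Cluster 2. Both have another condition in their cell names. Their oligodendrocyte markers, Malat1 and mitochondrial share lay outside the range of the injured mice of this fit, as given above. Fgf14 was 302 and 426 normalized CPM in these uninjured mice, beside 360 to 1030 in injured mice, and Fgfr1 was 50.4 and 58.0 beside 68.7 to 121. The cause was not tested. Numbers of genes called were within 1.5 times the reported one in 228 alternatives and outside it in 88. Below, Cluster 7 and the other classes are given for genotype, then injury. With animals numbered 10000 and above they were 5 and 73 in Cluster 7, 10 in astrocytes between genotypes, 8 at 7 d, 3 at 14 d, 1 for 14 d against earlier times, 21 in oligodendrocytes with injury, 3 and 202 in endothelial cells, and 21 and 545 in neurons. With no filter on low counts they were 4 in Cluster 7 between genotypes, 1, 78, 6, 7, 5 and 1 in the 6 astrocyte comparisons, 7 and 65 in oligodendrocytes, 35 and 158 in endothelial cells, and 10 and 21 in neurons. With DESeq2 they were 1 in astrocytes between genotypes, 0 and 1 in Cluster 7, 2 in oligodendrocytes with injury and 0 in neurons with injury. With at least 30 cells they were 3 in Cluster 7 between genotypes and 0 in neurons with injury. With a replicate block they were 5 in Cluster 7 between genotypes, 1 in astrocytes between genotypes, 1 at 14 d, 5 in oligodendrocytes with injury and 8 in neurons with injury. With the conditions of the cell names they were 20 and 4 in Cluster 7, 1 for 14 d against earlier times in astrocytes, and 1 and 5 in neurons. Without the 6 mice, chosen after seeing the data, they were 15 and 7 in Cluster 7 and 22 and 0 in neurons. Leaving out each mouse in turn gave 0 to 1 in astrocytes between genotypes, 0 to 78 with injury (most without replicate 1 of uninjured WT), 0 to 1 at 14 d, 0 to 7 in Cluster 7 between genotypes (7 without replicate 1 of WT at 14 d), 2 to 58 with injury (58 without replicate 1 of uninjured WT), 0 to 1 in oligodendrocytes with injury, 0 to 78 in endothelial cells with injury (most without replicate 1 of uninjured WT) and 0 to 44 in neurons with injury (44 without replicate 2 of cKO at 1 d). At 1 d no value can be had without the WT mouse, or with animals numbered 10000 and above. Of 2151 log2 differences of members, 156 moved by more than the SE. The 32 alternative levels moved by less than the SD between mice. Among them, Fgf14 in neurons was 989.8 CPM with animals numbered 10000 and above, beside 1615 in all mice, which is under the levels of Cluster 7 and OPC over all mice. Low counts limit Fgf2 and Fgf9 in all classes, and every result at 1 d rests on 1 WT mouse with 59501 astrocyte UMIs.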
